A study of Homo sapiens with 38 samples.

Results

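The genes described here are 10 human long noncoding RNA genes that host microRNAs, out of 58425 genes with a transcript in the tables: MIR17HG, MIR22HG, MIR31HG, MIRLET7BHG, MIR100HG, MIR210HG, MIR34AHG, MIR193BHG, MIR23AHG and MIR4435-2HG. They were chosen by symbol, and the estimated reads and the TPM (transcript abundance per length, scaled to the same sum in every library) of all their transcripts were summed in each library. RNA was sequenced from the nucleus and from the cytoplasm of HCT116, a human colorectal carcinoma line, and of 4 lines made from it by CRISPR editing in which AGO1, AGO2, both AGO1 and AGO2 (AGO1/2) or AGO1, AGO2 and AGO3 (AGO1/2/3) were knocked out. Argonaute proteins hold the mature microRNA and guide it to its target RNAs. Each of the 10 groups, 5 genotypes in 2 fractions, held 3 cultures, which gave 30 libraries of ribosomal RNA-depleted total RNA. No agent was added in any group, and each genotype was 1 cell line. Wild-type cultures were at passages 27, 28 and 29, those of the AGO1 line at 6, 7 and 8, those of the AGO2 line at 8, 9 and 10, those of the AGO1/2 line at 9, 10 and 11, and those of the AGO1/2/3 line at 11, 12 and 14. Genotype, the origin of the line and passage therefore cannot be told apart, and p-values measure the spread between cultures of 1 line.

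A microRNA host gene is transcribed by RNA polymerase II into a long primary transcript in which each microRNA is folded into a hairpin. The nuclear enzyme DROSHA, with DGCR8, cuts the hairpin out of an intron or an exon, and DICER1 trims it in the cytoplasm to the mature microRNA that is loaded on an Argonaute protein. The rest of the transcript may be spliced and stay in the nucleus, be exported or be degraded, so the host RNA and the mature microRNA can have different levels. Among these genes, MIR17HG is known as a target of MYC and MIR210HG as a gene induced by low oxygen. The libraries measured long RNA, not mature microRNAs.

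The 10 genes spanned 23 annotated microRNA genes on their own strand, and all 23 were matched to RefSeq (GRCh38.p14), which gave 44 mature sequences. Each of these microRNA genes drew at most 1 estimated read over all 30 libraries together. A subset of the mature sequences is shown to tie each host to its product. Capitals mark the seed, bases 2 to 8 from the 5′ end, which pairs with target RNAs. MIR17HG (chr13:91347686-91397592, plus strand) hosts 6 microRNA genes, the miR-17-92 cluster:
hsa-miR-17-5p (chr13:91350618-91350640): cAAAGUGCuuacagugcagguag
hsa-miR-20a-5p (chr13:91351072-91351094): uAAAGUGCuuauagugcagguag
hsa-miR-19a-3p (chr13:91350939-91350961): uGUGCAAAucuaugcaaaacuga
hsa-miR-19b-3p (chr13:91351245-91351267): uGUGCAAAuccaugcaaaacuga
hsa-miR-92a-3p (chr13:91351361-91351382): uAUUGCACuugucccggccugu
The first pair above share 1 seed, and the following pair share another. Among the mature sequences only the seed GAGGUAG, that of let-7, occurred in 2 hosts, MIRLET7BHG (chr22:46053869-46113928, plus strand) and MIR100HG (chr11:122028325-122556721, minus strand), which also hosts miR-100 and miR-125b:
hsa-let-7a-5p (chr22:46112752-46112773 and chr11:122146568-122146589): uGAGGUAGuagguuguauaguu
hsa-let-7b-5p (chr22:46113691-46113712): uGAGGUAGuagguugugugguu
hsa-miR-100-5p (chr11:122152275-122152296): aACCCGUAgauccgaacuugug
hsa-miR-125b-5p (chr11:122099809-122099830): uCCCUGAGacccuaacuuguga
MIR34AHG (chr1:9148011-9198906), MIR31HG (chr9:21380073-21559891), MIR22HG (chr17:1711447-1717174) and MIR4435-2HG (chr2:111006015-111523376), all on the minus strand, carry 1 microRNA gene each:
hsa-miR-34a-5p (chr1:9151735-9151756): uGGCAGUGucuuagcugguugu
hsa-miR-31-5p (chr9:21512158-21512178): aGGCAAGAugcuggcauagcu
hsa-miR-22-3p (chr17:1713914-1713935): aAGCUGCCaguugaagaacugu
hsa-miR-4435 (chr2:111321061-111321082): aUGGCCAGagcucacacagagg
The remaining hosts are MIR23AHG (chr19:13823880-13842928, minus strand) with MIR23A, MIR27A and MIR24-2, MIR193BHG (chr16:14301389-14331067, plus strand) with MIR193B and MIR365A, and MIR210HG (chr11:565657-568457, minus strand) with MIR210. Gene positions are those of GENCODE 44 on GRCh38.

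Total estimated reads ranged from 20431557 to 26536692 in the nuclear wild-type libraries and from 31252459 to 54097984 in the nuclear knockout libraries. The cytoplasmic libraries held 39476205 to 43281746 reads in wild type and 66451720 to 79731793 in the knockouts, so wild type was the shallowest genotype in both fractions. AGO1 was at 9.34 to 12.6 TPM in wild-type nuclei and at 2.39 to 4.13 TPM in nuclei of the 3 lines that lack it. The nuclear AGO2 level in the AGO2 line was 26.57 to 33.96 TPM against 45.97 to 57.76 TPM in wild type. The AGO1/2 line missed the test for AGO2 in the nucleus (edgeR, adjusted p = 0.0536), and in its cytoplasm AGO2 was called higher (log2 change 0.31, adjusted p = 0.00266). In the cytoplasm of the AGO1/2/3 line AGO2 was at 0.11 (adjusted p = 0.264) and AGO3 was called higher (0.34, adjusted p = 0.00236). The RNA level alone therefore does not check those labels. EPCAM, KRT8, KRT18 and CDH1, epithelial markers, were detected, and CDX1 was at 0 in every library. Against wild-type cytoplasm CDH1 had log2 changes of -1.28 (AGO1), -0.55 (AGO2, not called by edgeR), -3.08 (AGO1/2) and -2.40 (AGO1/2/3). EPCAM changed by -1.22 and -1.18 in the last pair of lines, where KRT18 was at 0.02 and 0.13 and KRT8 at 0.05 and 0.40. COL1A2, PECAM1 and PTPRC, markers of other cell types, did not exceed 0.1151 TPM. COL1A1, from the same list, passed the filter on low counts, with a wild-type log2 nuclear to cytoplasmic ratio of 1.11. In bulk RNA, fewer cells with a transcript and less of it per cell cannot be told apart.

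Levels of the 10 host RNAs in wild-type nuclei ranged from below 1 to above 100 TPM. MIR100HG led with a mean of 123.5 TPM, and its wild-type nuclear libraries were at 120.6, 125.4 and 124.5 TPM. MIR4435-2HG followed at 35.15, 29.66 and 31.88 TPM, and MIR17HG at 17.41, 17.09 and 10.95 TPM. These 3 genes did not overlap with each other in any wild-type nuclear library. MIRLET7BHG came next at a mean of 6.698 TPM, then MIR34AHG at 4.988 TPM and MIR23AHG at 3.155 TPM, and these neighbours also stayed apart. The last 4 were MIR193BHG at 1.767 TPM, MIR22HG at 1.686 TPM, MIR31HG at 1.275 TPM and MIR210HG at 0.8303 TPM, and each of them overlapped with the next in the order. The 10 genes together held a median of 192.2 TPM in wild-type nuclei and 36.02 TPM in wild-type cytoplasm. Their nuclear sum was lower in every knockout line, with medians of 134.9 (AGO1), 121.9 (AGO2), 118.1 (AGO1/2) and 114.3 TPM (AGO1/2/3), a sum set largely by MIR100HG. The cytoplasmic sums had medians of 25.05, 28.6, 42.05 and 39.08 TPM in the same order of lines.

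**Figure D1:**
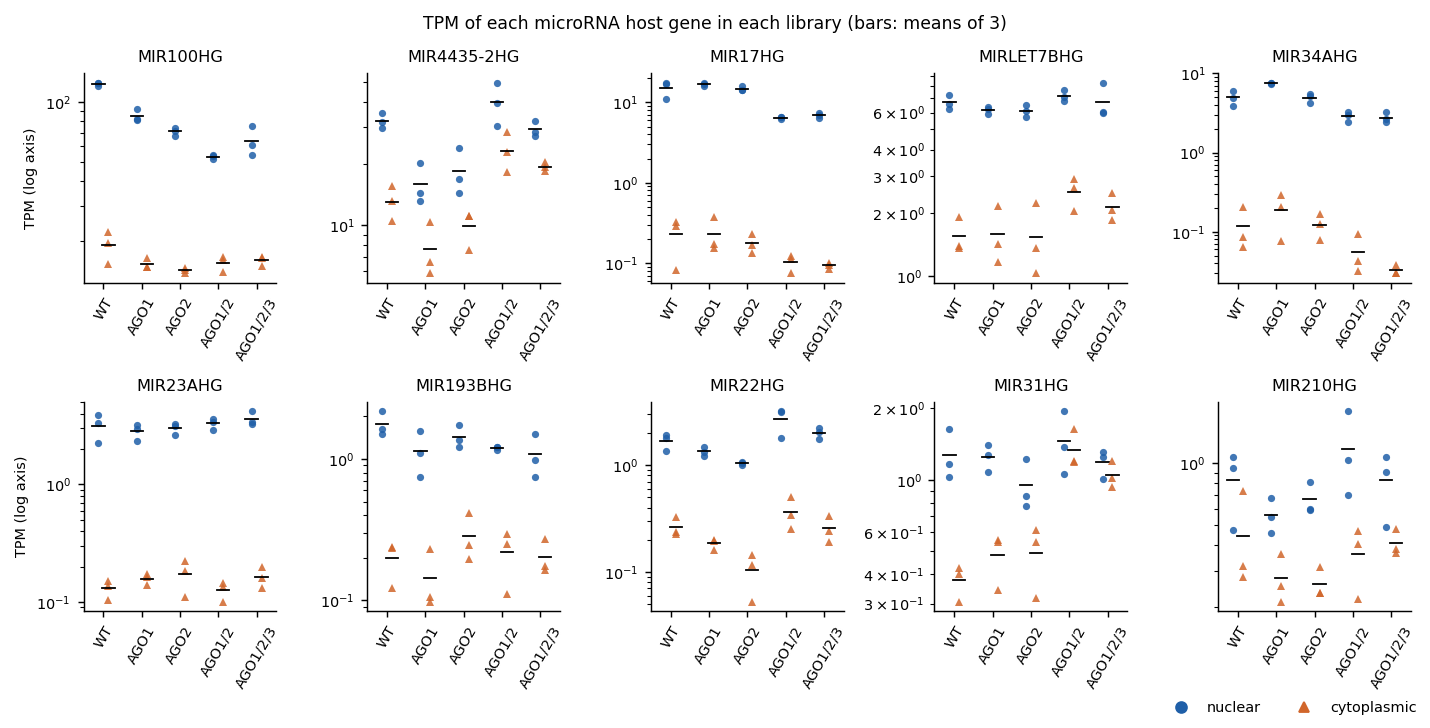
Level of each host gene in every library, in TPM on a log axis, with the nuclear and cytoplasmic libraries of the 5 genotypes side by side; points are libraries, bars are means (n = 3 per group), and each gene has its own axis. MIR100HG lies highest in the nucleus, with a wild-type mean of 123.5 TPM, and MIR210HG lowest, with 0.8303 TPM.

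To ask where the host RNAs reside, nuclear and cytoplasmic libraries were compared within each genotype. The ratio is relative to the other genes, because the scaling centres the fractions on each other, and is not an amount per cell. In wild type all 10 host RNAs were called higher in the nucleus (adjusted p of at most 0.05, edgeR's quasi-likelihood test), against 39.6% of the 20104 genes tested, although MIR210HG turned to a log2 ratio of -0.06 on the TPM scale centred on the median gene. On that scale MIR4435-2HG also missed the test (limma, 0.44, adjusted p = 0.0772). The 10 genes had a median log2 ratio of 2.69, and the median of all genes was 0.04. MIR17HG had the highest ratio, 6.38 ± 0.235 (log2, SE). Its reads numbered 629 to 1085 in the nuclear and 18, 16 and 6 in the cytoplasmic wild-type libraries, so the cytoplasmic value rests on few reads. MIR34AHG followed at 4.75 ± 0.197 and MIR23AHG at 4.04 ± 0.245 on the log2 scale. MIR22HG (2.92), MIR193BHG (2.83), MIRLET7BHG (2.55), MIR100HG (2.08) and MIR4435-2HG (1.95) formed a middle range of log2 ratios. The lowest were MIR31HG, host of miR-31, at 1.17 ± 0.328 (adjusted p = 0.0023) and MIR210HG at 0.84 ± 0.344 (adjusted p = 0.029).

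As ratios of TPM between libraries of the same passage, the wild-type values were 82.27 ± 45.25 for MIR17HG, 55.88 ± 31.99 for MIR34AHG, 23.93 ± 3.672 for MIR23AHG, 3.399 ± 0.7285 for MIR31HG and 2.051 ± 0.8387 for MIR210HG (SD, n = 3). The first pair had the widest spread, and the cytoplasmic reads of MIR34AHG numbered 12 to 47 in a library. Across all genes the median ratio of mean TPM was 1.587 in wild type, 1.548 in the AGO1, 1.617 in the AGO2, 2.163 in the AGO1/2 and 1.663 in the AGO1/2/3 line. All 10 host genes lay above the median of their own genotype in wild type and in the AGO1 and AGO2 lines. In the AGO1/2 and AGO1/2/3 lines 8 of 10 lay above the median of that line. The call for MIR210HG in wild type was lost without any 1 of 4 wild-type libraries, with an adjusted p of up to 0.222. It was also lost without the filter on low counts (adjusted p = 0.0798) and in an edgeR fit of only the groups compared (0.168).

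In the AGO1 line all 10 host RNAs were again called higher in the nucleus, against 40% of genes. With limma on centred TPM MIR31HG (0.46, adjusted p = 0.0789), MIR4435-2HG (0.29, 0.249) and MIR210HG (0.05, 0.902) missed the test there. MIR210HG also lost the call in that line without the filter on low counts (0.0552). In the AGO2 line 9 were called higher in the nucleus, against 39.8% of genes, and MIR31HG was not called (log2 ratio 0.41, adjusted p = 0.201), but was on TPM that were not centred (0.84, 0.00248). On centred TPM MIR4435-2HG (0.05, 0.856) and MIR210HG (0.27, 0.457) missed the test in the AGO2 line. Of the 10, 8 were higher in the nucleus in the AGO1/2 line, against 36.9% of genes, and MIR31HG was called lower in the nucleus at -0.91 ± 0.251 (adjusted p = 0.00239), which on TPM that were not centred turned to 0.09. MIR4435-2HG was among those 8 at 0.50 ± 0.181 (adjusted p = 0.0166), which turned to -0.32 on centred TPM and lost the call without 1 of either of 2 libraries. MIRLET7BHG, also among them, missed the test on centred TPM (0.40, adjusted p = 0.109). The AGO1/2/3 line had 8 higher in the nucleus, against 36.1% of genes, with MIR31HG at -0.48 (adjusted p = 0.0985) and MIR210HG at 0.55 (adjusted p = 0.0995) not called, and MIR4435-2HG at 0.80 turning to -0.19 on centred TPM. MIR17HG had the highest log2 ratio in the edgeR fit in every genotype, between 5.40 in the AGO1/2 line and 6.38 in wild type, while by TPM ratio MIR34AHG was at 65.07 ± 34.99 against 65.36 ± 15.65 for MIR17HG in the AGO1/2 line and at 86.25 ± 22.1 against 73.89 ± 6.573 in the AGO1/2/3 line.

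**Figure D2:**
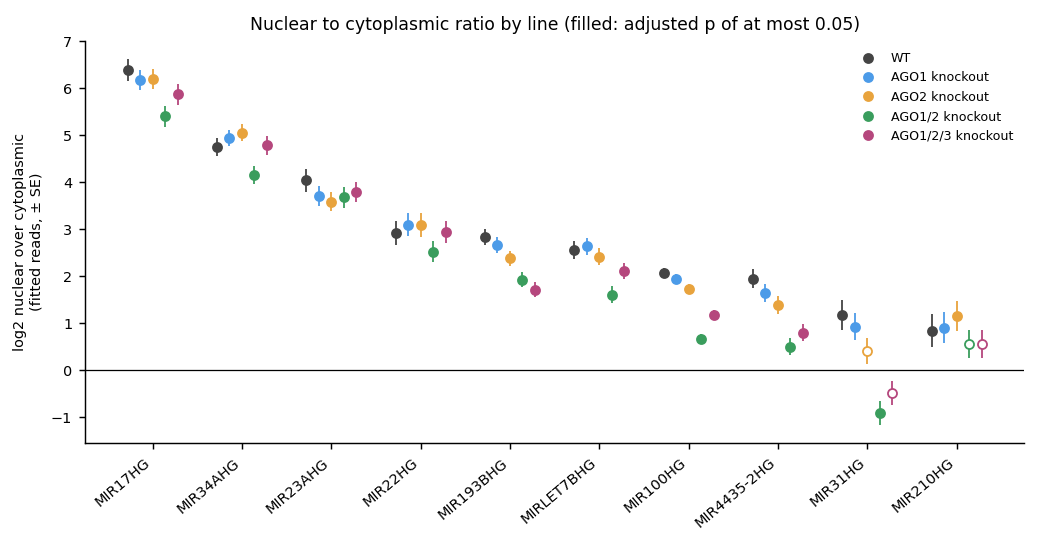
Log2 ratio of nuclear to cytoplasmic reads for each host gene in the 5 genotypes, from 1 edgeR fit of 30 libraries; bars are SE, and filled points passed an adjusted p of 0.05. MIR17HG lies highest, at 6.38 in wild type, and MIR31HG runs from 1.17 in wild type to -0.91 in the AGO1/2 line, a value that turns to 0.09 on TPM that were not centred.

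Each knockout line was then compared with wild type among the nuclear libraries. The 4 comparisons share the 3 wild-type libraries, so their results are given side by side and not as separate lines of evidence. For these comparisons levels are given as CPM, counts scaled by edgeR to a common library size within the fraction. The host genes called were 4 of 10 in the AGO1 line (29.9% of the 18919 genes tested were called), 3 in the AGO2 line (40.2% of genes), 4 in the AGO1/2 line (67.6%) and 5 in the AGO1/2/3 line (58.6%). The host genes' share was near or below that of all genes in each line, and their median log2 change lay between -0.01 and 0.03 where that of all genes lay between -0.06 and -0.02.

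MIR100HG, host of let-7a-2, miR-100 and miR-125b-1, fell in all 4 lines. Wild-type nuclei held 215, 219.2 and 236.5 CPM, the AGO1 line 185.9, 180.5 and 188.4, the AGO2 line 161.5, 161.3 and 158.3, the AGO1/2 line 101.4, 102.5 and 114.3, and the AGO1/2/3 line 162.8, 135.8 and 122 CPM. No knockout library reached the lowest wild-type library. The log2 changes were -0.27 ± 0.0845 (adjusted p = 0.0239), -0.48 ± 0.0847 (4.4e-04), -1.08 ± 0.0855 (3.8e-08) and -0.67 ± 0.0849 (7.1e-06) in that order, with SE. The change in the AGO1 line was the smallest, and its call was lost without any 1 of 3 libraries (adjusted p of up to 0.0793) and without the filter on low counts (0.0504).

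MIR17HG, the host of the miR-17-92 cluster, rose in the AGO1 line and fell in the lines that lack 2 or 3 Argonautes. Its nuclear wild-type libraries were at 38.19, 38.81 and 28.27 CPM and those of the AGO1 line at 45.19, 46.19 and 49.55 CPM, a log2 change of 0.42 ± 0.105 (adjusted p = 0.00754) whose call was lost on TPM that were not centred (0.18, adjusted p = 0.337) and not on centred TPM. The AGO1/2 line was at 14.29, 15.86 and 16.62 CPM, a log2 change of -1.17 ± 0.108 (adjusted p = 1.8e-07). The AGO1/2/3 libraries were at 17.51, 20.97 and 17.62 CPM, with a change of -0.91 ± 0.107 (adjusted p = 3.7e-06). All 6 libraries of these lines lay below every wild-type library. The AGO2 line, at 41.84, 40.58 and 40.54 CPM, lay above every wild-type library and was not called by edgeR (log2 change 0.22), but was without the filter on low counts (0.26, adjusted p = 0.042).

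MIR34AHG, the host of miR-34a, rose in the AGO1 line and fell in the AGO1/2 and AGO1/2/3 lines. Its nuclear level was 14.36, 14.55 and 10.78 CPM in wild type and 22.79, 22.81 and 24.27 CPM in the AGO1 line, a log2 change of 0.81 ± 0.113 (adjusted p = 1.3e-04). The AGO1/2 line held 7.706, 7.667 and 9.551 CPM (log2 change -0.67 ± 0.116, adjusted p = 1.0e-04) and the AGO1/2/3 line 8.824, 9.072 and 8.069 CPM (-0.62 ± 0.116, adjusted p = 3.2e-04). The AGO2 line was at 13.89, 15.28 and 16.14 CPM and overlapped with wild type. No library of the other 3 lines overlapped with wild type.

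MIR4435-2HG, whose neighbours include the apoptosis regulator BCL2L11, fell in the nuclei of both single-knockout lines. Wild-type nuclei held 49.28, 46.97 and 48.35 CPM, the AGO1 line 29.62, 22.36 and 25.12 CPM and the AGO2 line 37.72, 29.36 and 26.65 CPM. The log2 changes were -0.91 ± 0.136 (adjusted p = 2.3e-04) and -0.63 ± 0.135 (0.00192), and no library of these lines overlapped with wild type. The changes in the AGO1/2 line, at 46.49, 55.24 and 40.81 CPM, and in the AGO1/2/3 line, at 48.12, 43.14 and 39.81 CPM, were -0.02 and -0.14 and did not pass the test.

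MIR22HG, a host RNA known to respond to stress, had a lower nuclear level in the AGO2 line and a higher one in the AGO1/2 and AGO1/2/3 lines. It was at 4.224, 3.68 and 5.977 CPM in wild type, 3.25, 3.056 and 3.252 CPM in the AGO2 line, 8.67, 7.833 and 5.247 CPM in the AGO1/2 line and 6.66, 7.007 and 5.586 CPM in the AGO1/2/3 line. The last pair of lines overlapped with wild type, with 2 of 3 libraries beyond it in each. The log2 changes were -0.53 ± 0.198 (adjusted p = 0.0438), 0.65 ± 0.187 (0.00614) and 0.48 ± 0.188 (0.0401). The call for the AGO2 line was lost without any of 5 of the 6 libraries, with a change of -0.30 (adjusted p = 0.251) without the wild-type library of passage 29, and that for the AGO1/2/3 line without any of 4 (0.36, adjusted p = 0.141, without the wild-type library of passage 28). With limma the AGO2 call was lost on centred TPM (-0.33, adjusted p = 0.207) and the AGO1/2/3 call on TPM that were not centred (0.25, 0.313). In an edgeR fit of only the groups compared both were lost (adjusted p = 0.0691 and 0.0662). MIR193BHG, the host of miR-193b and miR-365a, was at 7.322, 8.992 and 6.92 CPM in wild-type nuclei and 6.184, 6.406 and 4.966 CPM in the AGO1/2/3 line. Its log2 change of -0.40 ± 0.128 (adjusted p = 0.0138) lost the call without 1 wild-type library, that of passage 28 (adjusted p = 0.113), or without the AGO1/2/3 library of passage 14 (0.0701).

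The other 4 host genes were not called by edgeR in any nuclear comparison. MIRLET7BHG, the host of let-7a-3 and let-7b, was at 15.59, 14.09 and 13.66 CPM in wild type and came nearest in the AGO1 line, at 15.05, 17.78 and 19.15 CPM (adjusted p = 0.0502). Without the filter on low counts it was called in the AGO1 (0.30, adjusted p = 0.04) and AGO1/2/3 lines (0.27, 0.0399), and on centred TPM in the AGO1/2 (0.28, 0.0429) and AGO1/2/3 lines (0.31, 0.0294). MIR23AHG, the host of the miR-23a, miR-27a and miR-24-2 cluster, had log2 changes of 0.06 to 0.40, the highest in the AGO1/2/3 line (adjusted p = 0.0723), where it was called without the filter (0.47, adjusted p = 0.0114) and on centred TPM (0.52, 0.0279). MIR31HG had nuclear changes of -0.17 to 0.22 and MIR210HG of -0.33 to 0.29 on the log2 scale. MIR210HG was counted with 14 to 67 reads in a nuclear library.

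**Figure D3:**
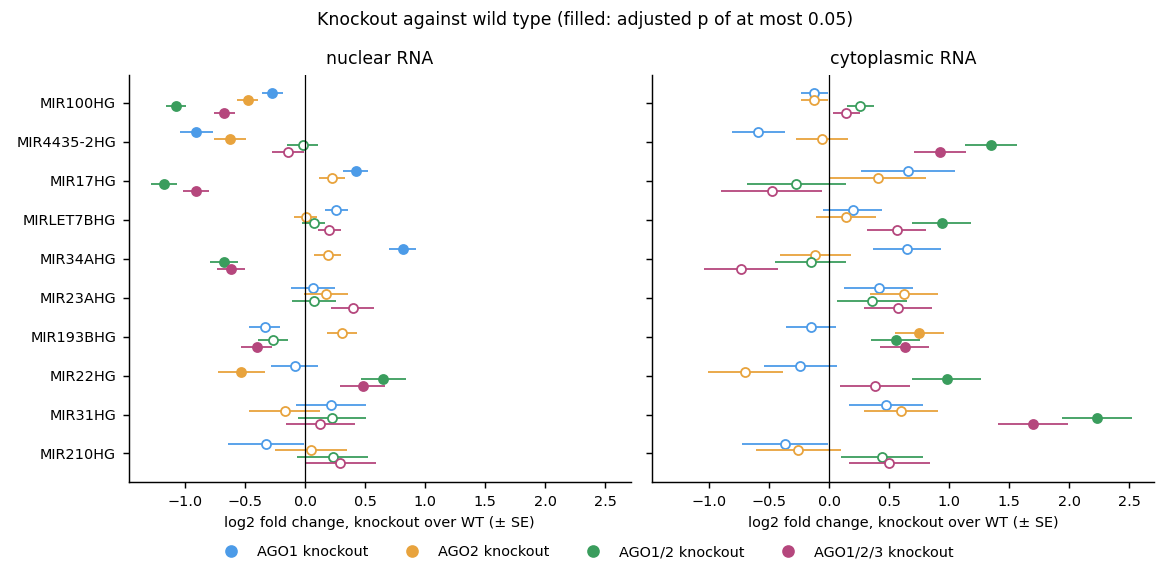
Log2 change of each host gene against wild type in the 4 knockout lines, nucleus and cytoplasm in separate panels, with SE (edgeR, 3 libraries per group); filled points passed an adjusted p of 0.05. In the nucleus MIR17HG and MIR100HG lie at -1.17 and -1.08 in the AGO1/2 line, and in the cytoplasm MIR31HG lies at 2.23.

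In the cytoplasm the host RNAs called by edgeR all rose, while limma on TPM that were not centred called MIR22HG (-0.85, adjusted p = 0.0123) and MIR100HG (-0.40, 0.018) lower in the AGO2 line. None of the 10 host genes was called in the AGO1 line by edgeR's quasi-likelihood test, where 12.4% of the 17605 genes tested were called and 4879 genes had an unadjusted p under 0.05, while DESeq2 called 1, MIR4435-2HG at -0.59 (adjusted p = 0.0481). In the AGO2 line 1 was called (16.1% of genes), in the AGO1/2 line 5 (49.2%) and in the AGO1/2/3 line 3 (38.7%), shares near or below those of all genes. The median log2 change of the 10 genes was 0.50 in the AGO1/2 line and 0.53 in the AGO1/2/3 line, where that of all genes was -0.01 in both.

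MIR31HG had the largest cytoplasmic change, measured on ENST00000304425, the only 1 of its 27 GENCODE 44 transcripts with deposited values. It was counted with 9, 14 and 14 reads in wild type, 117, 86 and 85 in the AGO1/2 line and 62, 80 and 68 in the AGO1/2/3 line. The same libraries held 0.2192, 0.3144 and 0.3212 CPM, 1.67, 1.265 and 1.114 CPM, and 0.8339, 1.048 and 0.9171 CPM. Every library of both lines lay above every wild-type library. The log2 changes were 2.23 ± 0.288 (adjusted p = 1.8e-05) and 1.70 ± 0.292 (3.4e-04), and with 1 library left out they stayed between 2.06 and 2.35 and between 1.55 and 1.79. The nuclear level of this gene was 0.7744, 1.087 and 0.7639 CPM in wild type and 0.9409, 0.7121 and 1.394 CPM in the AGO1/2 line, which overlapped.

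MIR4435-2HG rose in the cytoplasm of the same lines. Wild type held 8.84, 8.016 and 10.87 CPM, the AGO1/2 line 23.35, 30.04 and 17.26 CPM and the AGO1/2/3 line 18.28, 17.69 and 16.66 CPM. The groups did not overlap, with log2 changes of 1.35 ± 0.216 (adjusted p = 1.3e-04) and 0.92 ± 0.215 (0.00339). In the AGO1 line, at 8.273, 5.291 and 4.857 CPM, its change was -0.59 (adjusted p = 0.0966).

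Of the other called genes, MIR22HG was at 0.3409, 0.494 and 0.5047 CPM in wild-type cytoplasm and 0.8849, 1.162 and 0.616 CPM in the AGO1/2 line, a log2 change of 0.98 ± 0.286 (adjusted p = 0.0107) that missed the test without the AGO1/2 library of passage 10 (0.0527). With limma on TPM that were not centred this call was also lost (0.33, adjusted p = 0.211). MIRLET7BHG was at 2.094, 1.931 and 1.445 CPM in wild type and 3.754, 4.044 and 2.687 CPM in the AGO1/2 line, a change of 0.94 ± 0.243 (adjusted p = 0.00514). Its change in the AGO1/2/3 line was 0.56 (adjusted p = 0.0836). MIR193BHG rose in the AGO2, AGO1/2 and AGO1/2/3 lines by 0.75, 0.56 and 0.63 on the log2 scale (adjusted p = 0.0209, 0.0346 and 0.0234). Its reads were 31, 32 and 41 in wild type and 65 to 116 in those 3 lines, and its CPM overlapped with wild type in the AGO1/2 line alone. Each of the 3 calls was lost without 1 library, in the AGO2 line without any of 3 (adjusted p of up to 0.0881), in the AGO1/2 line without any of 3 (0.36, adjusted p = 0.163, without its library of passage 10) and in the AGO1/2/3 line without any of 4 (up to 0.0858), and that of the AGO1/2 line was lost with DESeq2 (0.0522). The changes of this gene were 0.35, 0.07 and 0.03 on TPM that were not centred and 0.63, 0.52 and 0.31 on centred TPM, with none called. MIR100HG, which fell in every nuclear comparison, had cytoplasmic changes of 0.26 (AGO1/2, adjusted p = 0.0709) and 0.14 (AGO1/2/3, adjusted p = 0.348).

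Whether a knockout changed the distribution between the fractions was tested as an interaction, the log2 nuclear to cytoplasmic ratio of the knockout less that of wild type. In the AGO1 and AGO2 lines 0 of the 10 host genes was called by edgeR, where 0.478% and 3.13% of genes had a called lower ratio and 2833 and 4266 genes had an unadjusted p under 0.05 in either direction. DESeq2 and limma also called 0 in both lines, while the replicate block, which pairs libraries by passage number, called MIR100HG (-0.36, adjusted p = 0.0492) and MIR4435-2HG (-0.57, 0.00737) in the AGO2 line. Lower ratios were called for 5 host genes in the AGO1/2 line, against 17% of the 20104 genes. For the AGO1/2/3 line 4 had a lower ratio, against 11.1% of genes, and no host gene had a called higher ratio in either line. The median difference of the 10 genes was -0.92 in the AGO1/2 and -0.48 in the AGO1/2/3 line on the log2 scale, and that of all genes was -0.04 and -0.03.

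MIR31HG had the largest difference, -2.09 ± 0.413 in the AGO1/2 line (adjusted p = 2.8e-04) and -1.66 ± 0.418 in the AGO1/2/3 line (0.00522). As a ratio of TPM between libraries of the same passage it went from 3.399 ± 0.7285 in wild type to 1.121 ± 0.4492 and 1.144 ± 0.1788 (SD, n = 3). For this gene the cytoplasmic level was called higher and the nuclear level was not called. MIR100HG had differences of -1.41 ± 0.143 (adjusted p = 5.8e-08) and -0.90 ± 0.142 (6.3e-05), with TPM ratios of 6.686 ± 1.378 in wild type, 3.448 ± 0.2174 in the AGO1/2 and 3.999 ± 0.6322 in the AGO1/2/3 line. Here the nuclear level was called lower and the cytoplasmic level was not called. Both genes kept their calls under every alternative tried.

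MIR4435-2HG had differences of -1.45 ± 0.264 (AGO1/2, adjusted p = 1.1e-04) and -1.15 ± 0.264 (AGO1/2/3, 0.00251), and its cytoplasmic level alone was called in these lines. MIR193BHG had -0.90 ± 0.239 (0.00411) and -1.11 ± 0.238 (0.00134). MIRLET7BHG had -0.94 ± 0.256 in the AGO1/2 line (0.00503). These 3 genes lost their calls on TPM that were not centred, with adjusted p of 0.165 and 0.0981 for MIR4435-2HG, 0.246 and 0.199 for MIR193BHG, and 0.126 for MIRLET7BHG. On centred TPM the adjusted p were 0.054 and 0.135 for MIR4435-2HG and 0.0889 and 0.211 for MIR193BHG. MIR17HG, at -0.98 in the AGO1/2 line, missed the test of edgeR (adjusted p = 0.0586) but was called by DESeq2 (-1.07, adjusted p = 0.0104), with RLE (-1.07, 0.0403) and with the replicate block (0.0388), and MIR22HG and MIR34AHG differed by 0.02 and 0.03 in the AGO1/2/3 line, values whose sign changed with the scaling.

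Marker RNAs of the fractions also differed between the genotypes. The nuclear to cytoplasmic ratio of mean TPM of MALAT1, a nuclear RNA, was 25.46 in wild type and 12.34 to 13.03 in the knockout lines, and that of KCNQ1OT1 was 50.29 and 29.2 to 33.26. NEAT1 was at 16.86 and 11.95 to 13.37. Among the messenger RNAs used as cytoplasmic markers, RPLP0 was at 0.3561 in wild type and 0.3719 to 0.3988 in the knockouts, while GAPDH was at 0.6442 in wild type, 1.794 in the AGO1/2 and 1.046 in the AGO1/2/3 line, EEF1A1 at 0.5524, 1.137 and 0.6799, and ACTB at 2.709, 7.064 and 4.868. The ratios of GAPDH, EEF1A1 and ACTB in the AGO1/2 line were thus above those of wild type, the opposite direction from the 5 host genes called there, and the ratios of the 3 nuclear RNAs were below them in every knockout line. The part of these shifts in the ratios of the host genes was not tested.

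Several host genes differed between the fractions in which of their transcripts carried the reads. Estimates for single transcripts divide shared reads by a model and are less sure than gene sums. For MIR100HG, the transcript ENST00000524376 was listed at 0 TPM in wild-type nuclei and at 8.68 ± 1.33 TPM in wild-type cytoplasm, 46.02% of the gene there (SD, n = 3). It held 7.83 and 8.001 TPM in the cytoplasm of the AGO1/2 and AGO1/2/3 lines, whose nuclei held 2.949 ± 1.569 and 1.087 ± 0.9605 TPM of it. The nuclear transcripts were others: ENST00000532350 was at 24.69 ± 3.849 TPM in wild-type nuclei, 6.736 ± 1.512 in the AGO1/2 line and 8.929 ± 2.111 TPM in the AGO1/2/3 line. ENST00000532315 was at 24.25, 8.446 and 10.86 TPM, ENST00000531381 at 20.87, 8.879 and 10.6 TPM, and ENST00000533109 at 17.83, 8.931 and 11.46 TPM in the same 3 groups. Each of these 4 leading nuclear transcripts had a lower mean in both lines, and the leading cytoplasmic one moved by less than its wild-type SD.

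In MIR17HG a pair of transcripts made up most of the RNA. ENST00000582141 held 55.33% and ENST00000400282 held 41.73% of the gene's TPM in wild-type nuclei. These shares were 57.28% and 40.28% in the AGO1/2 line and 54.94% and 42.42% in the AGO1/2/3 line, so the lower total was spread over both. In wild-type cytoplasm, where few reads fell on the gene, ENST00000400282 held 82.46%. The microRNA hairpins of MIR17HG lie in an exon of 2 of the 3 transcripts listed, which together held 58.27 ± 1.903% of its TPM in wild-type nuclei and 17.54 ± 3.441% in wild-type cytoplasm.

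MIRLET7BHG showed the same kind of split. Its transcript ENST00000360737, of 4560 bases, contains the hairpins of let-7a-3, let-7b and MIR4763 in an exon. It held 1.879 ± 0.2297 TPM, 28.01 ± 1.661% of the gene, in wild-type nuclei and 0.1048 ± 0.04517 TPM, 6.762 ± 2.956%, in wild-type cytoplasm. The share was 26.15% in nuclei and 4.476% in cytoplasm of the AGO1/2 line, and 27.23% and 5.506% in the AGO1/2/3 line. The groups of the 2 fractions did not overlap in wild type. In MIR34AHG the transcript with the miR-34a hairpin, ENST00000635687, held 47.52 ± 6.08% of the nuclear TPM in wild type and 46.16% to 51.49% in the knockout lines. In the cytoplasm, on 12 to 47 reads, its mean share was 71.87 ± 48.72% in wild type and 37.41% to 100% in the knockout lines, so MIR34AHG did not show the lower cytoplasmic share of the other pair. Transcript lengths differed from GENCODE 44 for part of the transcripts, among them 2 of 3 of MIR17HG, so the placement of its hairpins in exons holds for that release. The lengths of ENST00000360737 and ENST00000635687 were the same in both.

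**Figure D4:**
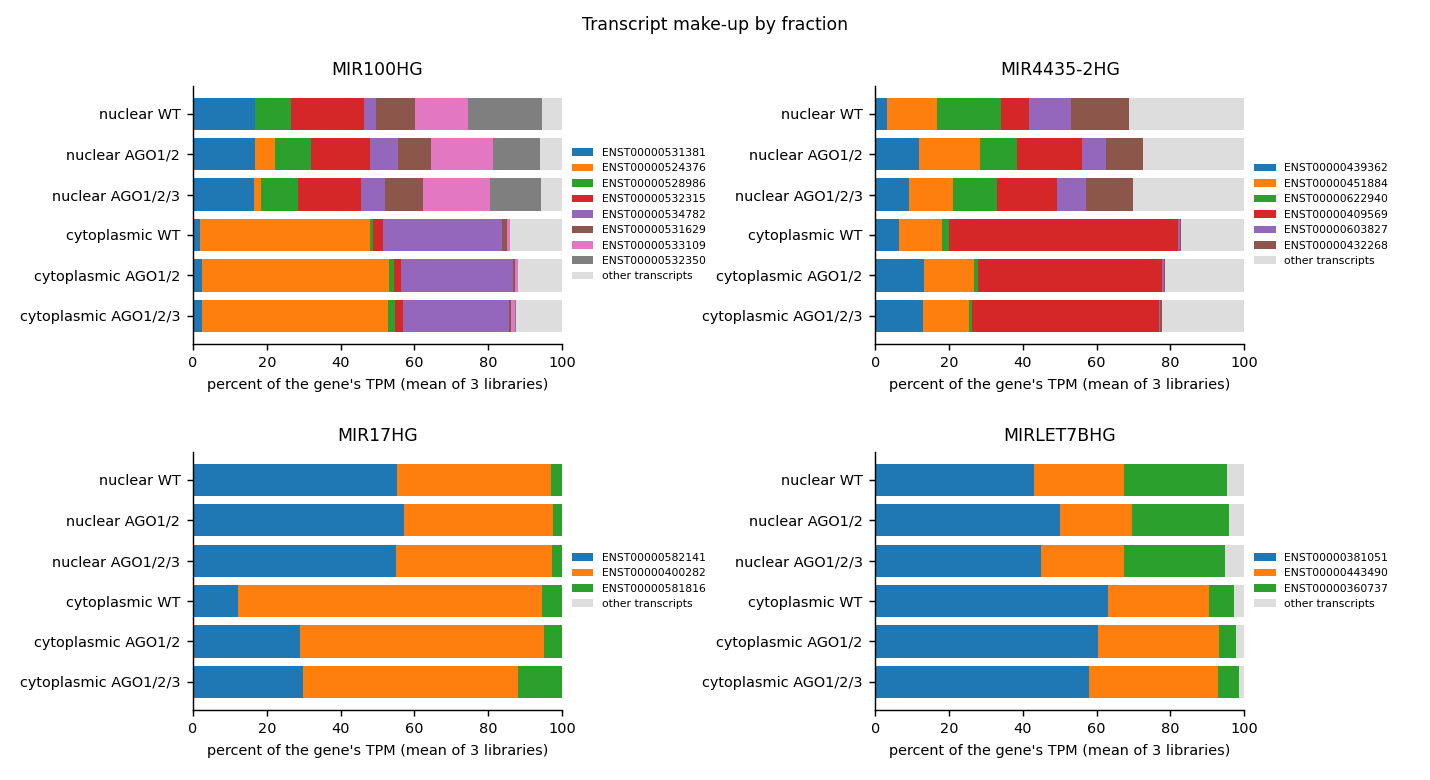
Percent of the TPM of MIR100HG, MIR4435-2HG, MIR17HG and MIRLET7BHG held by each transcript, as stacked horizontal bars (means of 3 libraries) for wild type and the AGO1/2 and AGO1/2/3 lines in each fraction; transcripts with at least 10% of the gene in any group have a colour and the rest are light grey. ENST00000524376 holds 46.02% of MIR100HG in wild-type cytoplasm and 0 in wild-type nuclei, and ENST00000360737 holds 28.01% of MIRLET7BHG in wild-type nuclei and 6.762% in wild-type cytoplasm.

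MIR4435-2HG was led by other transcripts in the cytoplasm than in the nucleus. ENST00000409569 held 62.26% of its TPM in wild-type cytoplasm, at 8.206 ± 2.104 TPM, and 7.641% in wild-type nuclei, at 2.485 ± 1.243 TPM. Its cytoplasmic level was 11.56 TPM in the AGO1/2 and 9.783 TPM in the AGO1/2/3 line. ENST00000439362 was at 1.017 TPM in wild-type nuclei and at 4.638 and 2.685 TPM in nuclei of those lines, with cytoplasmic means of 0.8166, 3.062 and 2.48 TPM.

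The sequence of MIR4435-2HG is shared with CYTOR, a related noncoding RNA gene on the same chromosome, so reads could be divided between them in more than one way. Of the 14190 distinct 31-base words in its transcripts, 30.775% also occurred in CYTOR, and 20 of its 22 transcripts shared at least 10% of their words. CYTOR itself changed by -0.55 (AGO1, adjusted p = 0.0159), -0.42 (AGO2, 0.0443), 0.83 (AGO1/2, 1.7e-04) and 0.55 (AGO1/2/3, 0.00536) in the nucleus, and by 1.24 (1.3e-04) and 0.83 (0.00417) in the cytoplasm of the last pair of lines. The 2 transcripts of MIR4435-2HG with little shared sequence summed to 2.547 to 3.064 TPM in wild-type nuclei, 0.9215 to 1.185 TPM in the AGO1 line and 1.135 to 1.908 TPM in the AGO2 line, with no overlap. In the cytoplasm they summed to 0.4744 to 0.7231 TPM in wild type, 0.64 to 1.049 TPM in the AGO1/2 line and 0.8451 to 0.9836 TPM in the AGO1/2/3 line. The nuclear fall in the single knockouts and the cytoplasmic level of the AGO1/2/3 line were therefore apart from wild type in these transcripts too, and the AGO1/2 line overlapped with wild type. MIR193BHG shared 14.869% and MIR23AHG 10.521% of their words with other genes on the same strand, and their values carry the same uncertainty. On the opposite strand MIR17HG shared 28.463%, MIR23AHG 21.713%, MIR31HG 16.28% and MIR193BHG 14.964% of their words with other genes, which bears on their counts if strand was not used.

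Several host genes lie within or across other genes. Of 29 protein-coding neighbours and overlapping genes, 22 were tested in the nucleus, and 15 were called in the AGO1/2 line (11 higher, 4 lower; 67.6% of all genes were called) and 14 in the AGO1/2/3 line (10 higher, 4 lower; 58.6% of all genes), shares near those of all genes. UBASH3B, a neighbour of MIR100HG, rose by 1.86 (adjusted p = 1.0e-10) and 1.43 (2.2e-09) in the nuclei of these lines, where MIR100HG fell. BLID, which lies inside MIR100HG on the same strand, had changes of -1.76 and -1.30. WDR81, on the strand opposite MIR22HG and overlapping it, had nuclear changes of 0.70 and 0.61, the direction of MIR22HG in those lines. IFNE, an interferon gene on the strand of MIR31HG and overlapping it, rose by 1.10 in the cytoplasm of the AGO1/2 line (adjusted p = 0.0273) and was at 0.91 (adjusted p = 0.0792) in the AGO1/2/3 line. Whether reads of such partners were kept apart by strand is not given in the sources used here.

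The remaining genes whose symbols start with MIR and end in HG numbered 71 in the tables. Of the 22 tested in the nucleus, 8 were called in the AGO1 line (2 higher, 6 lower), 10 in the AGO2 line (1 higher, 9 lower), 17 in the AGO1/2 line and 14 in the AGO1/2/3 line, all of these last lower, with median log2 changes of -1.09 and -0.77 in the last pair. Of all genes 29.9%, 40.2%, 67.6% and 58.6% were called in these lines, in either direction. The 3 with the largest nuclear change in the AGO1/2/3 line were MIR2052HG at -3.15 (adjusted p = 2.1e-06), MIR181A1HG at -1.54 (1.5e-07) and MIR9-1HG at -1.12 (1.0e-08). In the cytoplasm 16 were tested, with 6 called in the AGO1/2 line (2 higher, 4 lower) and 5 in the AGO1/2/3 line (2 higher, 3 lower), where 49.2% and 38.7% of all genes were called. Those with the largest change in the latter were MIR130AHG at 1.61 (adjusted p = 0.0425), MIR200CHG at -0.95 (0.0129) and MIR378D2HG at -0.74 (0.00455). In wild type 21 of 24 were called higher in the nucleus, with a median log2 ratio of 2.79, against 39.6% of all genes. A lower ratio than in wild type was called for 9 in the AGO1/2 line and 7 in the AGO1/2/3 line, against 17% and 11.1% of all genes.

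Of 13 genes of microRNA maturation and function, 9 were called in the nuclei of the AGO1/2 line (6 higher, 3 lower) and 8 in the AGO1/2/3 line (4 higher, 4 lower), the knocked-out genes included, shares near the 67.6% and 58.6% of all genes. DROSHA, which releases the hairpin, fell by 0.30 (adjusted p = 1.0e-04) and 0.32 (8.9e-05) on the log2 scale. DGCR8, its partner, was not called. DICER1 rose by 0.82 (adjusted p = 2.2e-04) and 0.67 (0.00155) in the cytoplasm of these lines. AGO4, which no line lacks by design, had nuclear changes of -0.46 and -0.43 in the single knockouts, 0.36 in the AGO1/2 line and 0.38 in the AGO1/2/3 line, and all 4 were called.

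Known regulators of the host genes, and genes known to respond to the same signals, were also read. MYC, the activator of MIR17HG, had nuclear log2 changes of 0.51, 0.44, -0.66 and -0.42 in the 4 lines, and MIR17HG had 0.42, 0.22, -1.17 and -0.91. CDKN1A, an inhibitor of the cell cycle, rose by 1.05 and 0.69 in the nuclei of the AGO1/2 and AGO1/2/3 lines, where MIR34AHG fell and MIR22HG rose. MDM2, a ubiquitin ligase, had changes of 1.04, 0.22, 0.44 and 0.16. NDRG1, induced by low oxygen, rose by 1.23 and 1.15 in the last pair of lines, and MIR210HG was not called in them. In the cytoplasm of that pair NDRG1 was at 0.68 and 0.78, and neither was called by edgeR. VEGFA, a further gene of the low-oxygen response, was at -0.41 and 0.02 there and was not called either. CA9, of the same response, did not pass the filter on low counts in the cytoplasm.

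Over the 15 nuclear libraries, the gene most like each host gene by Pearson's r of log2(TPM + 0.1) was SLC25A25-AS1 for MIR17HG (0.985), DMTF1 for MIR100HG (0.988), DLG1 for MIR4435-2HG (0.971), ABL2 for MIR22HG (0.954), GNAI1 for MIR34AHG (0.949) and CD226 for MIR193BHG (0.917). For MIR31HG, MIRLET7BHG, MIR210HG and MIR23AHG the highest r was 0.799 to 0.802. The points share their libraries and genotypes, and the values are a description only.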

How the data were processed

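Nuclear and cytoplasmic total RNA of HCT116 and 4 Argonaute knockout lines was depleted of ribosomal RNA, made into libraries with a stranded kit and sequenced in pairs; the cytoplasm was separated by a hypotonic buffer with NP-40. Values were estimated by the authors with Salmon (version 0.11.0 in the submitters' processing notes, which also name STAR 2.5.3a and DESeq2) against human transcripts. Each deposited table gives, per transcript, an estimated count and a TPM. Of 200401 transcripts, 196040 (97.824%) were matched by identifier, without version, to GENCODE 44, and both values were summed over 58425 genes, the estimated counts then rounded. The deposited values cover 3 of 16 GENCODE 44 transcripts of MIR17HG, 24 of 107 of MIR100HG, 22 of 108 of MIR4435-2HG and 1 of 27 of MIR31HG. The gene sums are limited to those. 8 eCLIP samples were not used, and 0 columns of per-sample values were left out.

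Counts were tested with edgeR 4.0.16 in R 4.3.3 (TMM scaling, filterByExpr with a minimum count of 10, quasi-likelihood test, Benjamini-Hochberg adjustment over all genes tested, with a call at an adjusted p up to 0.05). All 5 genotypes of a fraction entered 1 fit, and the ratio of the fractions and its change were tested in 1 fit of the 30 libraries. The edgeR tests of a nuclear comparison, of a ratio of the fractions and of a change in that ratio were checked on simulated data. The cytoplasmic fit and the alternatives named below were not checked in this way. Few genes were changed in the simulated data, so the scaling was not checked for comparisons in which a large share of genes is called. All 10 host genes passed the filter. Exact permutation tests of 3 against 3 cannot go below 0.1 and are not quoted. Alternatives were DESeq2 1.42.0, its size factors (RLE), no filter, limma 3.58.1 on log2(TPM + 0.1), a replicate block, a fit restricted to the compared groups, and 1 library left out; limma on TPM centred on the median gene was added after the data were seen.

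The members and the gene lists were chosen with earlier results of these data known. Named were all 10 members, the microRNA genes within them, transcripts with at least 10% of a gene's TPM in any group, the 3 other MIR...HG genes with the largest called change in the AGO1/2/3 line per fraction, AGO genes, DROSHA, DGCR8 and DICER1, called or overlapping neighbours, known regulators and genes of the same responses (1 of them is not reported here) and the most alike gene per member. Word sharing used all 31-base words of the transcripts in GENCODE 44. Sequences are from RefSeq. Figures were drawn with matplotlib 3.10.9 under Python 3.11.15.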

Additional observations from a re-analysis of the deposited data

Results flagged for a closer look

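In the AGO1/2 line the nuclear to cytoplasmic ratio differed from that of wild type, by the interaction test of edgeR, for MIR31HG (-2.09), MIR4435-2HG (-1.45), MIR100HG (-1.41), MIRLET7BHG (-0.94) and MIR193BHG (-0.90), all log2 differences. In the AGO1/2/3 line it differed for MIR31HG (-1.66), MIR4435-2HG (-1.15), MIR193BHG (-1.11) and MIR100HG (-0.90). The same 3 wild-type cultures stand behind both lines.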

How the results depend on the processing

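Of the 80 member results called by edgeR, 79 kept direction and call with DESeq2, 80 with RLE, 76 without the filter, 75 in a fit of only the groups compared, 68 with limma on TPM and 60 with limma on centred TPM, and 500 of 534 values with 1 library left out did so. Reversed values were MIR210HG in wild type on centred TPM (nuclear to cytoplasmic ratio -0.063), MIR31HG in the AGO1/2 line on TPM not centred (0.089), and MIR4435-2HG on centred TPM in the AGO1/2 (-0.318) and AGO1/2/3 lines (-0.193), all log2. Counts of host genes called moved in many settings, and a part of the moves is given. Cytoplasmic AGO1, 0, went to 1 with DESeq2 and with limma on TPM. Cytoplasmic AGO2, 1, went to 2 with limma on TPM and to 0 with centred TPM and with only the groups compared. The ratio change in AGO1/2, 5, went to 2 and 3, and in AGO1/2/3, 4, to 2 and 2, with limma on TPM and on centred TPM. In cytoplasmic AGO1/2 limma on TPM lost MIR22HG (0.33, adjusted p = 0.211) and MIR193BHG (0.07, 0.852). Without the filter nuclear AGO1/2/3 gained MIRLET7BHG and MIR23AHG. On centred TPM the wild-type ratio lost MIR210HG and MIR4435-2HG, and the AGO1 ratio lost these and MIR31HG. The ratio change in AGO1/2 rose to 6 with DESeq2, RLE and the replicate block, MIR17HG being gained. With 1 library left out, counts ranged from 2 to 5 (nuclear AGO2; 5 without the wild-type library of passage 28), 3 to 6 (nuclear AGO1/2/3; 3 without that library), 0 to 1 (cytoplasmic AGO1, 1 without its library of passage 6; cytoplasmic AGO2, 0 without its library of passage 9 or wild type of passage 27 or 28; ratio change in AGO2, 1 without cytoplasmic wild type of passage 29), 3 to 7 (cytoplasmic AGO1/2; 3 without its library of passage 10) and 2 to 6 (cytoplasmic AGO1/2/3; 6 without wild type of passage 29). Counts of other comparisons also moved with 1 library left out, that of the wild-type ratio among them, where MIR210HG was lost. The cause was not tested.

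Both fractions carry the same passage numbers, and deviations from the group means correlated between same-numbered libraries at 0.148 to 0.402 in wild type and -0.0271 to 0.212 in the knockout lines. Whether same-numbered samples share a culture or only a number is not settled by these values, and the main fits did not pair them. With the replicate block the ratio change of the AGO2 line was called for 2 host genes in place of 0 (MIR100HG -0.36, adjusted p = 0.0492, and MIR4435-2HG -0.57, 0.00737), MIR17HG was called in the AGO1/2 line (-0.98, adjusted p = 0.0388), and the nuclear ratio of MIR210HG was called in the AGO1/2 (0.57, adjusted p = 0.0192) and AGO1/2/3 lines (0.54, 0.0236); no other call of the 10 genes changed.

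Limma on TPM that are not centred shifts the median of all genes by -0.12 to -0.26 in the nuclear, -0.14 to -0.36 in the cytoplasmic comparisons and 0.50 to 0.89 in the ratios, on the log2 scale. The share of higher calls among all genes then falls from 47.81% to 5.86% (nuclear AGO1) and from 48.52% to 13.27% (cytoplasmic AGO1/2), and rises from 51.51% to 75.34% (wild-type ratio) and from 53.57% to 73.73% (ratio change in AGO1/2). When centred it is 65.89% (nuclear AGO1), 67.14% in place of 34.51% (cytoplasmic AGO1) and 39.51% (wild-type ratio). With RLE the share for the ratio change is 42.41% in AGO1/2, 22.01% in place of 45.68% in AGO2 and 9.96% in place of 27.82% in AGO1.

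Counts of all genes called moved most for the ratio change. In AGO1, 133 became 1261 (replicate block), 561 and 462 (limma on TPM, centred), 507 (DESeq2), 271 (RLE) and 31 (only the groups compared). In AGO2, 1158 became 3623 (replicate block), 606 (no filter) and 298 (only the groups compared), and in AGO1/2/3, 4567 became 7011 (replicate block). Nuclear AGO1 went from 5651 to 3628 and cytoplasmic AGO1 from 2185 to 813 with only the groups compared, and cytoplasmic AGO2 from 2828 to 1277 there and 4983 with limma on TPM.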
